A study of Mus musculus with 24 samples.

Results

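The 10 genes described here encode proteins that fuse and divide mitochondria (Opa1, Mfn1, Mfn2, Dnm1l), shape the cristae and exchange ions at the inner membrane (Immt, Chchd3, Chchd6, Letm1), or pack and copy mitochondrial DNA (Tfam, Polg). They were taken by name, not by their values, from 21959 genes counted in mouse aorta, and Atad3a is set beside them because the labels name the altered genotype ATAD3A-KI. All 10 were found in the deposited table. RNA-seq of poly(A) RNA was done on aortas of 24 male mice, taken as tissue reaching from the ascending part to the bifurcation in the abdomen. KI-BAPN (6 libraries) were ATAD3A-KI mice that drank 0.5% (w/v) β-aminopropionitrile for 28 days from 3 weeks of age. KI (5 libraries) were ATAD3A-KI mice on regular water, WT-BAPN (7) were wild types on the same BAPN course, and WT (6) were wild types on regular water. BAPN blocks lysyl oxidase, which cross-links collagen and elastin, and is used to induce aortic aneurysm and dissection. How the knock-in allele was built, its promoter and the cells that express it are not described in the labels.

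Mitochondria join and split continuously. The mitofusins MFN1 and MFN2 fuse the outer membranes, OPA1 fuses the inner membranes and holds cristae junctions tight, and DRP1, encoded by Dnm1l, constricts and divides the organelle. MICOS, the complex built around mitofilin (Immt) with Chchd3 and Chchd6 as partners, anchors cristae to the outer membrane, LETM1 exchanges cations across the inner membrane, TFAM coats mitochondrial DNA into nucleoids and starts its transcription, and POLG is the catalytic subunit of the DNA polymerase that copies it. ATAD3A is an AAA ATPase of the inner membrane that has been tied to nucleoid and cristae organisation.

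Library totals ran from 13127645 to 26490651 counts, and the 10 genes had between 120 and 4518 counts in a library. Levels are CPM, the counts of a gene scaled to a common library total with TMM factors. Smooth muscle markers had reads in every library, with a summed level of 8762 to 56236 CPM over 6 genes, although Tagln among them stood at only 9.73 to 54.6 CPM. Some libraries stood apart in markers of other tissue. Summed brown adipocyte markers (5 genes) were 1103 CPM in KI replicate 5, 1037 in KI-BAPN replicate 2 and 919 in KI-BAPN replicate 3, against 24.2 to 401 in the other 21. By this sum these 3 libraries are called adipocyte-rich below. Not all its genes set KI-BAPN apart: Ppargc1a reached 6.38 CPM in KI-BAPN and 12.4 CPM in WT, and Elovl3 1.86 and 2.63 CPM. Summed white adipocyte markers were 2822 CPM in KI-BAPN replicate 2 and 7387 CPM in replicate 3, and reached 2751 CPM in WT-BAPN. KI replicate 2 had 1246 CPM of summed sympathetic neuron markers, and WT replicate 5 had 15831 CPM of airway and gland markers and 5368 CPM of skeletal muscle markers. In whole aorta, fewer cells of a type and less RNA per cell cannot be told apart.

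Between groups, 1 of the 10 genes passed the test in 1 comparison: Letm1 was lower in WT-BAPN than in WT. The knock-in itself was plain. Atad3a was at 231, 501, 535, 575, 645 and 1038 CPM in KI-BAPN and at 617, 802, 1009.9, 1338 and 1629 CPM in KI, against 24.9 to 44.8 CPM in WT-BAPN and 30.2 to 61.4 CPM in WT. KI and WT libraries did not overlap on either kind of water, while BAPN and plain-water libraries of 1 genotype did. The difference of KI-BAPN from KI in Atad3a was -0.88 ± 0.29 on the log2 scale (SE), with an edgeR adjusted p of 0.273.

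**Figure D1:**
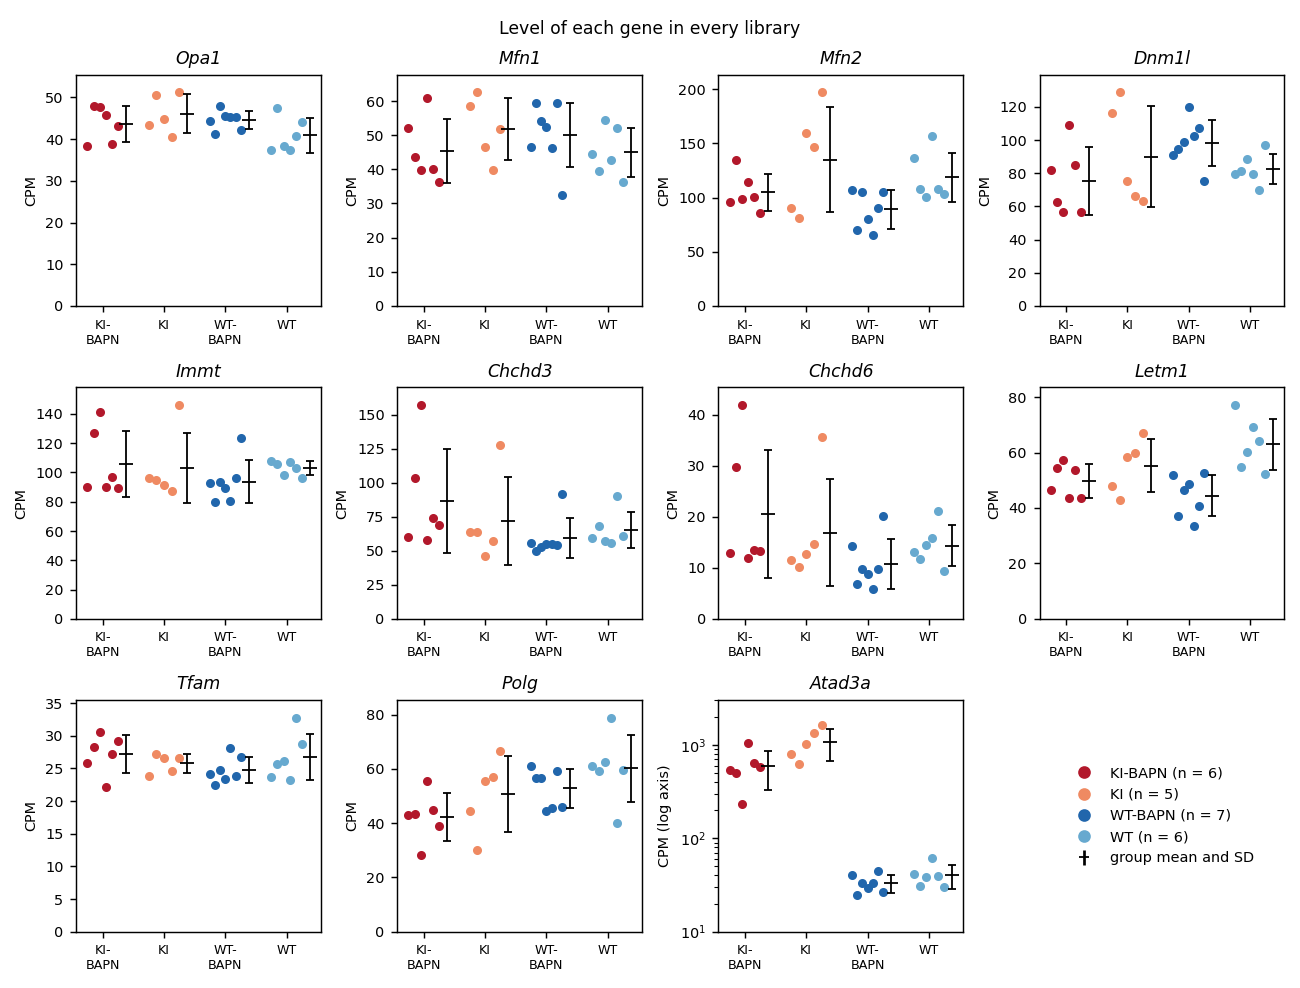
Level of each gene in CPM (vertical axis, from 0, with a log axis for Atad3a) in each library of the 4 groups, with the group mean and SD beside the points. Opa1 and Tfam lie close together in all groups, single KI-BAPN and KI libraries stand high for Immt, Chchd3 and Chchd6, and only Atad3a separates KI from WT libraries.

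Each comparison was fitted by edgeR over the 14216 genes that passed the filter on low counts, all 10 among them, and a gene was called at a Benjamini-Hochberg adjusted p under 0.05. For WT-BAPN against WT, 1 of the 10 genes was called, lower, where 6.14% of all genes tested were called (2.7% lower), and the median log2 difference of the 10 was -0.14 beside -0.04 over all genes. For KI-BAPN against KI, 0 of 10 were called where 0.0352% of all were, with medians of -0.12 and -0.03. For KI against WT, 0 of 10 were called where 0.19% of all were, with medians of 0.13 and -0.01. For KI-BAPN against WT-BAPN, 0 of 10 were called where 0.00703% of all were, with medians of 0.15 and -0.02. The interaction, the BAPN difference in KI minus that in WT, called 0 of 10 and 0% of all genes. DESeq2 called no other of the 10 genes in any comparison, and limma voom called 1 more, Mfn2 for WT-BAPN against WT. In that comparison limma voom called 4227 of the 14216 genes and DESeq2 called 1510 genes. The 2 of 10 called by limma voom are therefore not a result about these genes. At an unadjusted p under 0.05 edgeR had 2 of the 10 genes for WT-BAPN against WT, where 25.0% of all genes had it, and 3 for KI-BAPN against WT-BAPN, where 13.9% did. It had 0 of 10 for KI-BAPN against KI (10.1% of all), for KI against WT (16.9%) and for the interaction (14.8%). The comparisons share groups, so their values for 1 gene are not independent. None of the 10 genes had groups without overlap in any of the 4 pairwise comparisons, in which 2.12%, 0.647%, 2.38% and 0.218% of all genes did.

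**Figure D2:**
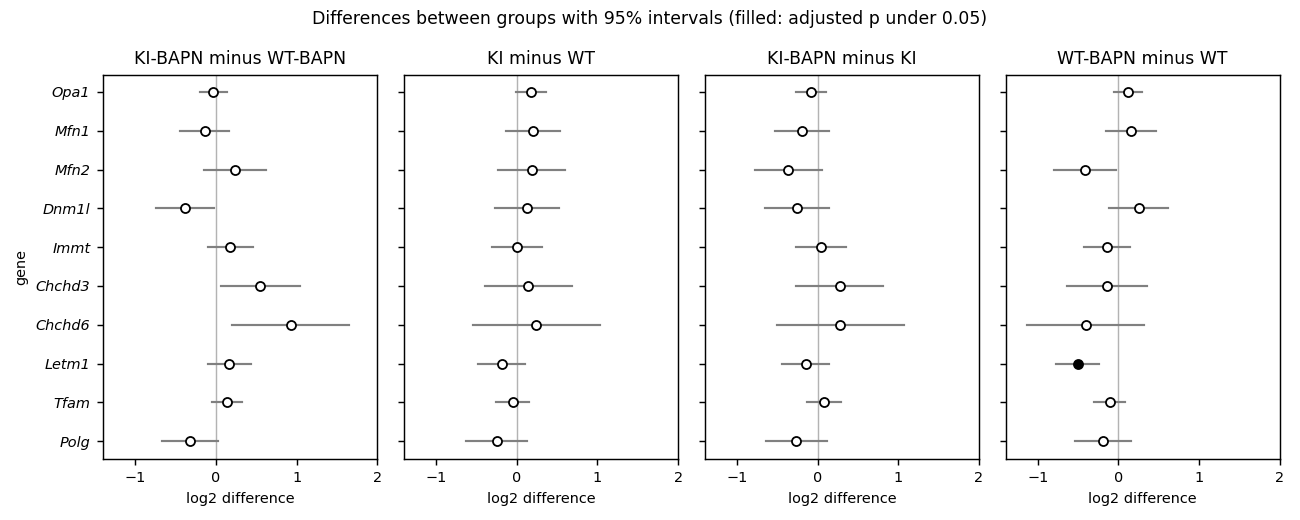
Fitted log2 difference (horizontal axis) of each gene in the 4 pairwise comparisons, with its 95% interval, filled where the adjusted p was under 0.05. The only filled point is Letm1 in WT-BAPN minus WT at -0.50, and the widest intervals are those of Chchd6.

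The fusion and fission genes gave no call between groups. Opa1, the inner membrane fusion GTPase, had a lowest, median and highest level of 38.3, 44.4 and 48.0 CPM in KI-BAPN, values of 40.6, 43.4, 44.8, 50.6 and 51.2 CPM in KI, 41.3, 45.3 and 47.9 CPM in WT-BAPN, and 37.3, 39.5 and 47.5 CPM in WT. All 4 groups overlapped, and Opa1 varied little between animals: its SD within groups was 0.126 on the log2 scale, and only 0.387% of tested genes had a smaller one. Its 95% intervals bound the fold between 0.830 and 1.08 for KI-BAPN against KI, and between 0.990 and 1.28 for KI against WT.

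Mfn1, an outer membrane fusion GTPase, was at 36.2 to 61.0 CPM in KI-BAPN, 39.7 to 62.5 CPM in KI, 32.6 to 59.5 CPM in WT-BAPN and 36.4 to 54.5 CPM in WT, with full overlap. Mfn2, its paralogue, which also tethers mitochondria to the endoplasmic reticulum, had a lowest, median and highest level of 65.3, 90.6 and 107 CPM in WT-BAPN, against 101, 108 and 157 CPM in WT. All 7 WT-BAPN libraries lay below the WT mean and 4 lay below every WT library. The log2 difference of -0.42 ± 0.19 (SE) had an edgeR adjusted p of 0.161, and limma voom with quality weights called it at the same size (-0.42, adjusted p = 0.0275). Limma voom called 4227 of all genes in that comparison. In the knock-in, Mfn2 was at 85.8, 99.7 and 135 CPM (lowest, median and highest) in KI-BAPN, and at 80.9, 90.8, 147, 160 and 197 CPM in KI. Every KI-BAPN library lay below the KI mean, but the KI libraries themselves fell into low ones (replicates 1 and 2) and high ones (3, 4 and 5), and the log2 difference was -0.36 ± 0.20 (edgeR adjusted p = 0.551).

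Dnm1l, the fission GTPase, had a lowest, median and highest level of 56.4, 72.3 and 109 CPM in KI-BAPN, and of 75.3, 98.9 and 120 CPM in WT-BAPN. In 3 of 6 KI-BAPN libraries it lay below every WT-BAPN library, and the log2 difference was -0.39 ± 0.18 (edgeR adjusted p = 0.337). In KI it was at 63.6, 66.1, 75.1, 116 and 129 CPM, against 70.0, 80.5 and 96.8 CPM (lowest, median and highest) in WT. The 2 high KI libraries were replicates 1 and 2, which had 89.1 and 1246 CPM of sympathetic neuron markers, against 6.67 to 44.96 CPM in all libraries but these and KI replicate 5 (199 CPM). KI replicate 5 had more of those markers than replicate 1 but the lowest Dnm1l of the KI libraries (63.6 CPM). The part of those markers in the level of Dnm1l was not tested. WT replicate 5 and KI replicates 1, 2 and 5 were left out together because earlier results named them as rich in other tissue, a choice that leaves in the adipocyte-rich KI-BAPN replicates 2 and 3. Without these 4 libraries the KI against WT difference of Dnm1l was -0.27, where it was 0.12 with all libraries. Only replicates 3 and 4 of KI remain in that setting. The count ratio of Mfn2 to Mfn1 ran from 1.84 to 3.09 in KI-BAPN, 1.29 to 3.80 in KI, 1.18 to 3.22 in WT-BAPN and 1.85 to 3.67 in WT, and that of Opa1 to Dnm1l from 0.418 to 0.837, 0.373 to 0.806, 0.380 to 0.561 and 0.431 to 0.585 in the same groups.

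Letm1, the inner membrane cation exchanger, was the gene that fell. It was at 33.5, 37.3, 40.5, 46.4, 48.7, 52.0 and 52.8 CPM in WT-BAPN, against 52.4, 55.0, 60.3, 64.1, 69.2 and 77.1 CPM in WT. Of the 7 WT-BAPN libraries 6 lay below every WT library, and the ranges met only at replicate 7 of WT-BAPN and replicate 6 of WT. The mean was 44.5 ± 7.49 CPM in WT-BAPN (SD, n = 7) and 63.0 ± 9.20 CPM in WT (SD, n = 6), a log2 difference of -0.50 ± 0.13 (SE) with an edgeR adjusted p of 0.0271, or a fold of 0.706 with a 95% interval of 0.587 to 0.848. The call was kept by DESeq2 (adjusted p = 0.00309), by limma voom (adjusted p = 0.00149) and without the 4 libraries named above (-0.50, adjusted p = 0.0212). It was lost without WT-BAPN replicates 2, 5 or 6 or WT replicates 1 or 4, each left out alone, at log2 differences of -0.48 to -0.44 and edgeR adjusted p of 0.0510 to 0.0661.

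Letm1 was at 46.4, 54.4, 57.4, 43.5, 53.7 and 43.5 CPM in KI-BAPN, against 48.0, 43.1, 58.3, 60.0 and 67.2 CPM in KI. These ranges overlapped for every KI-BAPN library, and the log2 difference was -0.15 ± 0.14 (edgeR adjusted p = 0.731). That the BAPN difference of Letm1 was itself different between KI and WT did not pass: the interaction was 0.35 ± 0.19 with an adjusted p of 0.366 and a 95% interval of -0.04 to 0.74. The smooth muscle marker sum was 14886 to 42413 CPM (median 26899.6) in WT-BAPN and 8762 to 56236 CPM (median 42183) in WT. Other marker sums moved in the same comparison. The adventitial fibroblast sum was 2485 to 6144 CPM (median 4170.5) in WT-BAPN and 1621 to 4659 CPM (median 2849.6) in WT. Of its 6 genes only Col1a1, at 1959 to 4638 CPM in WT-BAPN and 357 to 1639 CPM in WT, did not overlap. Dcn was at 241 to 1711 CPM in WT-BAPN and 232 to 2508 CPM in WT, and Lum at 58.0 to 817 and 29.1 to 422 CPM. Pi16, Clec3b and Pdgfra overlapped too, with their highest values in WT (384, 212 and 97.8 CPM, against 233, 151 and 89.9 CPM in WT-BAPN). The sum therefore does not show a shift shared by its genes. The brown adipocyte sum was 24.2 to 359 CPM (median 91.8) in WT-BAPN and 59.5 to 401 CPM (median 246) in WT, and that of airway and gland epithelium 0.283 to 7.23 CPM (median 0.692) in WT-BAPN and 5.31 to 15831 CPM (median 19.1) in WT. The part of these markers in the level of Letm1 was not tested between groups. Within groups the r of Letm1 with the adventitial fibroblast sum was -0.46 (rho -0.41, permutation p of 0.0395 and 0.0689, 0.209 and 0.323 after Benjamini-Hochberg adjustment over 143 relations, r of -0.34 without the 2 libraries farthest in the sum), and with the smooth muscle sum it was 0.32 (rho 0.48, permutation p of 0.145 and 0.0291, adjusted 0.377 and 0.198, r of 0.67 without the 2 farthest libraries).

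In the deposited table Letm1 (ENSMUSG00000005299) lies on the minus strand of chromosome 5 from 33897017 to 33940161. These coordinates differ from the GENCODE M21 annotation of GRCm38 for all 10 genes, so their build is open. The promoter of Letm1 is given as the only 1 of a gene that was called. RefSeq on GRCm38.p6 puts it at chr5:33782668-33782967 on the minus strand, 250 bases before the start of transcription to 50 after it, and neither of the motifs searched below was matched in it.
Letm1 promoter: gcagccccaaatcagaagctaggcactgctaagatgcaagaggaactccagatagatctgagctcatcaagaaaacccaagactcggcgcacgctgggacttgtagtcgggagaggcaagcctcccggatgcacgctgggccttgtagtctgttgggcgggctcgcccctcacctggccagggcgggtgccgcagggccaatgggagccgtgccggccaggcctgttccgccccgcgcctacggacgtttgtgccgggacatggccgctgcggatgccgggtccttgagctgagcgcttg

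Of the 10 genes, the MICOS subunits Chchd6 and Chchd3 had the widest spread between animals of 1 group (SD of 0.628 and 0.426 on the log2 scale), and Immt, with an SD of 0.232, rose and fell with them. Immt, which encodes mitofilin, was at 89.3, 90.1, 90.2, 97.1, 127 and 142 CPM in KI-BAPN, at 87.1, 91.4, 94.7, 96.0 and 146 CPM in KI, at 79.6 to 124 CPM in WT-BAPN (median 92.6) and at 96.1 to 107 CPM in WT (median 105). Chchd3, a MICOS subunit that bridges mitofilin to the outer membrane, was at 57.8, 59.9, 68.8, 73.7, 104 and 157 CPM in KI-BAPN, at 46.2, 57.3, 64.1, 64.1 and 128 CPM in KI, at 49.7 to 91.9 CPM in WT-BAPN (median 54.8) and at 55.3 to 90.5 CPM in WT (median 59.9). Chchd6, another MICOS subunit that binds mitofilin, was at 12.0, 12.8, 13.3, 13.5, 29.8 and 41.8 CPM in KI-BAPN, at 10.2, 11.5, 12.7, 14.6 and 35.5 CPM in KI, at 5.93 to 20.2 CPM in WT-BAPN (median 9.69) and at 9.41 to 21.1 CPM in WT (median 13.8).

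The high values of all 3 genes in the knock-in came from the same animals: KI replicate 5 and KI-BAPN replicates 2 and 3, the libraries with the highest brown adipocyte marker sums. In WT-BAPN the highest library for all 3 was replicate 7, which had the lowest brown adipocyte sum of all 24 (24.2 CPM), and in WT Chchd3 and Chchd6 were highest in replicate 5, the airway-rich library, where Immt was not. KI-BAPN differed from WT-BAPN by 0.93 ± 0.35 (log2, SE) in Chchd6 and by 0.55 ± 0.24 in Chchd3, with edgeR adjusted p of 0.274 and 0.307. Without the 3 adipocyte-rich libraries these differences were 0.26 and 0.13. KI-BAPN replicates 2 and 3 were the highest of their group for both genes, so leaving them out lowers the differences whatever their markers. The fall therefore says nothing on the part of adipocyte RNA, which was not tested. Within groups over 24 libraries the brown adipocyte sum had an r of 0.58 with Immt (rho 0.59), 0.57 with Chchd3 (rho 0.60) and 0.48 with Chchd6 (rho 0.36), with permutation p of 0.0126, 0.0127 and 0.0382 for r and 0.00542, 0.00409 and 0.108 for rho. None of these passed adjustment over the 143 relations of the 10 genes and Atad3a with 13 marker lists (adjusted p of 0.154, 0.154 and 0.209 for r and 0.184, 0.184 and 0.368 for rho). Without the 2 libraries farthest in the sum, r was 0.46, 0.51 and 0.37.

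**Figure D3:**
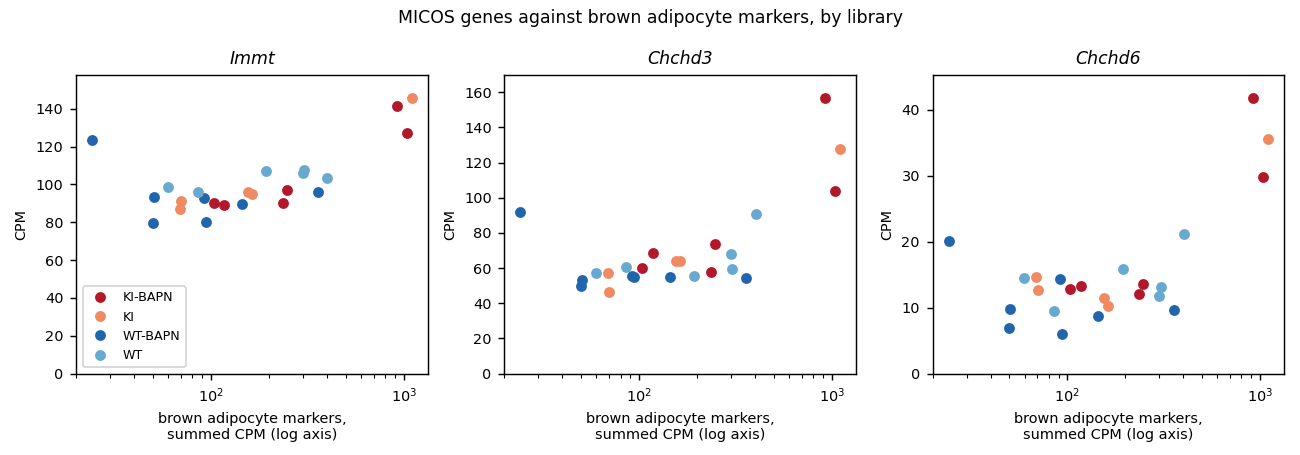
Levels of Immt, Chchd3 and Chchd6 in CPM (vertical axes, from 0) against the summed CPM of 5 brown adipocyte markers (horizontal log axis), 1 point a library, coloured by group. KI replicate 5 and KI-BAPN replicates 2 and 3 sit at the upper right of each panel (919 to 1103 CPM of markers), and WT-BAPN replicate 7 stands high at the lowest marker sum.

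The promoters of the 3 MICOS genes are given because their RNAs varied together. In RefSeq on GRCm38.p6 they lie at chr6:71831070-71831369 (Immt, plus strand), chr6:33060211-33060510 (Chchd3, minus strand) and chr6:89595603-89595902 (Chchd6, minus strand), each from 250 bases before to 50 after the start. Both strands were searched for GCGCANGCG, the core of the site of NRF1, a regulator of many nuclear genes for mitochondrial proteins. Capitals mark its 1 match among the 3, in Immt, on the strand opposite to the gene and starting at base 2 after the start. The motif was in 6.25% of 32851 RefSeq promoters of this length.
Immt promoter: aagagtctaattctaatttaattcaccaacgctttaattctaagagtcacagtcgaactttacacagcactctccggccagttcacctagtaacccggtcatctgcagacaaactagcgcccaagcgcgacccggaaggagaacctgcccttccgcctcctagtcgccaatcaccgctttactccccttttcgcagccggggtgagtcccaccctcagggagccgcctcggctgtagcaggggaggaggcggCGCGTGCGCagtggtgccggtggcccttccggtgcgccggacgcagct
Chchd3 promoter: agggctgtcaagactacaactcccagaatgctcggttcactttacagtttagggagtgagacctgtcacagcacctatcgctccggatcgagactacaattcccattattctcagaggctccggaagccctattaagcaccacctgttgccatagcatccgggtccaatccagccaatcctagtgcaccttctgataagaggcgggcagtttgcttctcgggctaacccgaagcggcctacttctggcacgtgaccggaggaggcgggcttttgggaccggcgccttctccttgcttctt
Chchd6 promoter: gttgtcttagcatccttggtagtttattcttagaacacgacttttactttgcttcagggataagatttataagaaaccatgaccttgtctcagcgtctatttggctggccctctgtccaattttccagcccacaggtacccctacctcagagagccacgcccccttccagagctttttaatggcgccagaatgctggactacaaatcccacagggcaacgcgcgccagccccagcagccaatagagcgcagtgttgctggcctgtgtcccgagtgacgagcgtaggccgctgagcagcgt

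The nucleoid genes gave no call between groups, and they differed in how much they varied. Tfam, the nucleoid packaging and transcription factor, was at 22.2, 27.8 and 30.5 CPM (lowest, median and highest) in KI-BAPN, at 23.8, 24.7, 26.5, 26.6 and 27.2 CPM in KI, at 22.5, 24.1 and 28.1 CPM in WT-BAPN and at 23.3, 25.9 and 32.7 CPM in WT. All groups overlapped. Its SD within groups was 0.142 on the log2 scale, smaller than in all but 1.12% of tested genes, and its 95% intervals bound the fold between 0.836 and 1.11 for KI against WT and between 0.963 and 1.25 for KI-BAPN against WT-BAPN.

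Polg, the catalytic subunit of the mitochondrial DNA polymerase, was at 28.3, 38.8, 42.8, 43.3, 44.9 and 55.6 CPM in KI-BAPN and at 30.2, 44.6, 55.4, 56.9 and 66.7 CPM in KI, against 44.6, 56.5 and 61.0 CPM (lowest, median and highest) in WT-BAPN and 40.2, 60.3 and 78.7 CPM in WT. In 4 of 6 KI-BAPN libraries Polg was below every WT-BAPN library, and the log2 difference was -0.32 ± 0.17 (SE, edgeR adjusted p = 0.401). KI against WT differed by -0.25 ± 0.18 (adjusted p = 0.518). In the deposited table Polg overlaps the antisense gene Fanci over 4034 bases. Fanci had 134 counts over all 24 libraries, and since the strand setting of the counting is not given in the sources used here, reads of the pair cannot be told apart in the overlap.

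Polg was the gene of the 10 whose level followed that of Atad3a between knock-in animals. KI replicate 5, at 1629 CPM of Atad3a, had 66.7 CPM of Polg, while KI-BAPN replicate 3, at 231 CPM of Atad3a, had 28.3 CPM. Over the 11 KI-BAPN and KI libraries, with group means removed, r was 0.921 and rho 0.873, with exact two-sided permutation p of 0.000208 and 0.00241 (0.00417 and 0.0481 after Benjamini-Hochberg adjustment over 20 relations). Leaving out 1 library at a time gave r of 0.904 to 0.961, and without the 2 libraries farthest from the median in Atad3a r was 0.910. The adjusted p was above 0.05 with those 2 left out (0.201), without KI replicates 1, 2 and 5 (r = 0.957, 0.0907), without the 3 adipocyte-rich libraries (r = 0.897, 0.104) and with the smooth muscle marker sum regressed out (r = 0.863, 0.129). In KI-BAPN alone r was 0.966 and rho 0.771 (n = 6, exact permutation p of 0.0167 and 0.103, adjusted 0.167 for r over 30 relations). Polg did not stand out there: r with Atad3a was -0.88 for Chchd3, -0.84 for Chchd6 and -0.80 for Immt. Their exact permutation p were 0.0153, 0.00833 and 0.0236 for r (adjusted 0.167, 0.167 and 0.175), with rho of -0.77, -0.77 and -0.71.

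In the 13 WT-BAPN and WT libraries the r of Polg with Atad3a was 0.474 and rho 0.478 (permutation p of 0.139 and 0.117, adjusted p of 0.555 and 0.396), and 0.07 without the 2 farthest libraries. Whether the relation differed between genotypes was not tested. How many of all tested genes followed Atad3a as closely in the knock-in was not computed, so the relation is not shown to be particular to Polg. The other 9 genes gave r of -0.63 (Tfam) to 0.55 (Mfn2) with Atad3a in the knock-in and of -0.34 (Opa1) to 0.57 (Mfn2) in the wild type, none with an adjusted p under 0.05. With KI replicate 5 left out, Immt also passed in the knock-in (n = 10, r -0.76, rho -0.71, permutation p of 0.00434 and 0.0131, adjusted 0.0434 and 0.129).

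**Figure D4:**
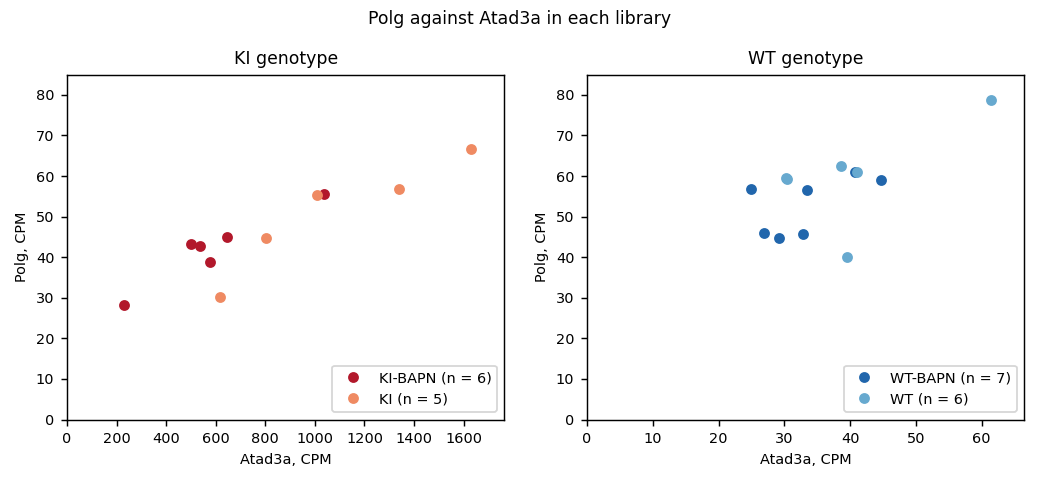
Polg against Atad3a, both in CPM on axes from 0, 1 point a library, in KI-BAPN and KI (left) and in WT-BAPN and WT (right); the horizontal scales differ. In the knock-in Polg runs from 28.3 CPM at the lowest Atad3a to 66.7 CPM at the highest, and in the wild type WT replicate 4 stands alone at 61.4 CPM of Atad3a.

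A stretch of the Polg promoter is set beside those of Tfam, Mfn1 and Opa1 because these 4 held a match close before the start. Each is 60 bases long, from base 70 to base 11 before the start, in RefSeq on GRCm38.p6 at chr7:79466284-79466343 (Polg, minus strand), chr10:71238055-71238114 (Tfam, minus strand), chr3:32529412-32529471 (Mfn1, plus strand) and chr16:29579264-29579323 (Opa1, plus strand). In the first 3 capitals mark CCGGAAGT, the core of ETS factors such as GABP, on the strand of the gene and starting 38, 47 and 44 bases before the start of Polg, Tfam and Mfn1. In Opa1 they mark a palindrome that matches the NRF1 core on both strands, as 2 overlapping matches. The ETS core was in the promoters of 3 of the 10 genes, beside 4.31% of all genes (3.89% of all RefSeq promoters). The NRF1 core was in those of 2 of the 10 (Opa1 and Immt), beside 7.03% of all genes. Promoters of the 10 were richer in G and C, with a median of 59.3% beside 52.7% over all. Whether the 10 hold more of these motifs than promoters of like make-up was not tested. The genes with the ETS core did not share a pattern of level: Polg and Tfam ran against each other between animals.
Polg stretch: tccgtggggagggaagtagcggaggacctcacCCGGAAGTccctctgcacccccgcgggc
Tfam stretch: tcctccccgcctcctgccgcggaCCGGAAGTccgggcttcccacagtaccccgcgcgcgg
Mfn1 stretch: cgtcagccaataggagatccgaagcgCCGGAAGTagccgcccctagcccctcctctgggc
Opa1 stretch: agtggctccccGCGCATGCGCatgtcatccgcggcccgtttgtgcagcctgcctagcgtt

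Between animals of 1 group, 13 of the 45 pairs among the 10 genes were related by r (permutation test, adjusted p under 0.05 over 45 pairs), 10 of them positively and 3 negatively. The share of related pairs among all tested genes was not computed, so this number is not a result about these 10 genes. The MICOS genes formed the tightest set, with r of 0.902 for Immt and Chchd6 (rho 0.807), 0.889 for Immt and Chchd3 (rho 0.729) and 0.849 for Chchd3 and Chchd6 (rho 0.568). Their permutation p were 3e-05, 0.00012 and 0.00011 for r and 0.00015, 0.00045 and 0.00935 for rho (adjusted 0.00108 for each r and 0.00337, 0.00405 and 0.0382 for rho). Without the 3 adipocyte-rich libraries r was 0.729, 0.651 and 0.587, and without the 2 libraries farthest in the first gene of each pair 0.828, 0.782 and 0.726.

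Letm1 went with Mfn2 (r 0.787, rho 0.752), Chchd6 (r 0.752, rho 0.800) and Immt (r 0.630, rho 0.663), all with adjusted p under 0.05 by both measures. Mfn2 also went with Polg (r 0.646, rho 0.639) and Chchd6 (r 0.596, rho 0.637), and Mfn1 with Dnm1l (r 0.607, rho 0.522, adjusted p of 0.0126 and 0.0566). Dnm1l ran against Chchd6 (r -0.67, rho -0.64) and Letm1 (r -0.57, rho -0.56), and Tfam against Polg (r -0.64, rho -0.51), while Chchd3 and Tfam rose and fell together (r 0.544, rho 0.469, adjusted p of 0.0213 and 0.0749). For these 10 pairs the permutation p ran from 8e-05 to 0.00716 for r and from 2e-05 to 0.025 for rho. Without the 2 farthest libraries r was 0.469 to 0.724 in the positive pairs and -0.65 to -0.46 in the negative ones. Mfn1 and Mfn2 did not pass (r -0.27), nor did Opa1 by r with any of the other 9. By rho alone Opa1 passed with Chchd3 (rho 0.576, permutation p = 0.0115, adjusted 0.0433, against r 0.433, adjusted 0.155). Mfn2 passed with Immt by rho alone too (rho 0.527, permutation p = 0.00822, adjusted 0.0370, against r 0.516, adjusted 0.0562). Mfn2 also had the only relation with a marker list that passed: its r with the adventitial fibroblast sum was -0.72 (permutation p = 0.00027, adjusted 0.0386), rho was -0.71 (permutation p = 0.00073, adjusted 0.104), and r was -0.61 without the 2 farthest libraries. Which genes of that sum ran against Mfn2 was not tested.

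**Figure D5:**
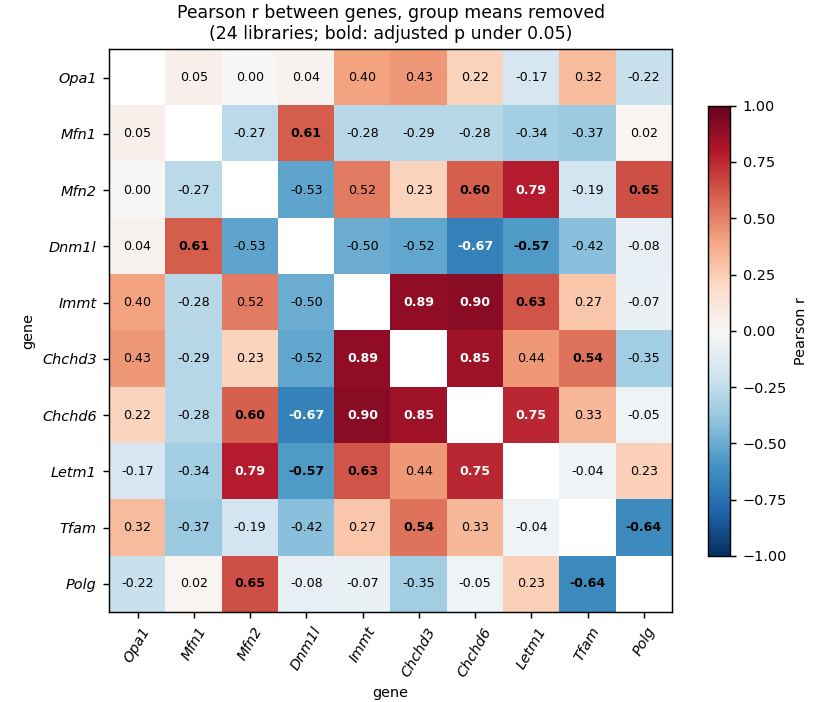
Pearson r of log2 CPM between each pair of the 10 genes over 24 libraries after group means were removed, as numbers and colour (red positive, blue negative), in bold where the adjusted p was under 0.05. The block of Immt, Chchd3 and Chchd6 holds the highest values (0.85 to 0.90), and Dnm1l is blue against Chchd6 and Letm1.

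Among 10854 tested genes with a mean of at least 5 CPM, the 1 most like each gene between animals was named by r over the 24 group-centred libraries. For the MICOS genes it was Ndufc2 for Chchd3 (r 0.968), which encodes a subunit of complex I, Cisd1 for Chchd6 (0.947), which encodes the outer membrane protein mitoNEET, and Cox6a1 for Immt (0.932), which encodes a subunit of cytochrome c oxidase. For the others it was Zc3h7a for Dnm1l (0.938), Mef2d for Polg (0.928), Dnajc7 for Mfn1 (0.928), Gtf3c5 for Mfn2 (0.884), Pgp for Letm1 (0.857), Tmem9b for Tfam (0.825) and Etfrf1 for Opa1 (0.740). Each is the highest of 10854 values, so its size is a description.

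Levels of the 10 genes were compared per length, as mean CPM per kilobase of the deposited gene length. In WT Mfn2 (22.9 ± 4.37, SD, n = 6) and Chchd3 (22.5 ± 4.53) stood highest and did not differ beyond their spread, followed by Dnm1l (15.9 ± 1.76) and Immt (9.08 ± 0.416). Mfn1 (7.35 ± 1.16), Letm1 (6.53 ± 0.953), Tfam (6.02 ± 0.798), Chchd6 (5.65 ± 1.59), Polg (5.61 ± 1.14) and Opa1 (5.19 ± 0.525) followed, with neighbours within their spread of each other. The order depends on the length: the deposited length of Immt is 11353 bases and its longest GENCODE M21 transcript has 2728, which puts it at 37.8 ± 1.73 CPM per kilobase, behind Chchd3 at 42.1 ± 8.48.

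Of 91 further genes of these pathways, 3 rose and 2 fell in WT-BAPN against WT, 1 fell in KI against WT, and none passed for KI-BAPN against KI, for KI-BAPN against WT-BAPN or for the interaction. The 5 called in WT-BAPN against WT are 5.49% of the 91, near the 6.14% of all genes tested, so their number is not a result about these pathways. The 1 called in KI against WT is 1.1% of the 91 beside 0.19% of all genes, and 1 gene does not describe the pathways either. Without WT replicate 5 and KI replicates 1, 2 and 5, WT-BAPN against WT called 6 higher and 7 lower of the 91. These are 14.3% of the 91 beside 10.5% of all genes. Without the 3 adipocyte-rich libraries it called 3 higher and 4 lower, 7.69% beside 7.72%. KI against WT called 0 of the 91 in both settings. Among 13 genes of fission adaptors, Spire1, an actin nucleator that acts at sites of division, fell to 24.9 to 43.6 CPM in WT-BAPN and stood at 19.4 to 31.8 CPM in KI, against 43.9 to 64.4 CPM in WT. Neither range overlapped that of WT. The log2 differences were -0.82 ± 0.20 (edgeR adjusted p = 0.0248) for WT-BAPN against WT and -1.12 ± 0.22 (adjusted p = 0.0383) for KI against WT, and both share the WT libraries. The KI against WT call was lost without WT replicate 5 and KI replicates 1, 2 and 5 (-1.30, adjusted p = 0.357), without the 3 adipocyte-rich libraries (-1.12, adjusted p = 0.0628) and when 11 of the libraries were left out 1 at a time (adjusted p up to 0.149). Leaving out WT replicate 5 and KI replicates 1, 2 and 5 keeps only replicates 3 and 4 of KI. That setting called 1 of 14486 tested genes for KI against WT.

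Among 18 genes of MICOS, the sorting and assembly machinery and other cristae proteins, Mtx3, an outer membrane metaxin, rose to 11.7 to 38.9 CPM in WT-BAPN, against 9.95 to 16.8 CPM in WT (log2 1.10 ± 0.26, edgeR adjusted p = 0.0215). Tmem11, an outer membrane partner of MICOS, fell to 23.6 to 35.8 CPM, against 30.9 to 49.7 CPM (-0.51 ± 0.15, adjusted p = 0.0425). Both pairs of ranges overlapped, and the list had a median of -0.16. Among 24 genes of the nucleoid, replication and transcription, the primase-polymerase gene Primpol was at 3.98 to 6.42 CPM in WT-BAPN, against 1.69 to 4.23 CPM in WT (0.96 ± 0.26, adjusted p = 0.0369), and Mterf2, a mitochondrial transcription termination factor, was at 2.63 to 5.80 CPM, against 1.89 to 3.19 CPM (0.85 ± 0.24, adjusted p = 0.0438), with a list median of 0.12. Mtx3 kept its call in all 36 other settings, Spire1 on BAPN in 32, Primpol in 27, Tmem11 in 26 and Mterf2 in 20.

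None of 14 fusion regulators and OPA1 processing genes, 11 genes of inner membrane ion exchange or 11 regulators of mitochondrial biogenesis passed in any comparison with all 24 libraries. Without WT replicate 5 and KI replicates 1, 2 and 5, 4 of them passed in WT-BAPN against WT: Mul1 (-0.48, edgeR adjusted p = 0.0317), Mcur1 (-0.36, adjusted p = 0.0447), Nrf1 (-0.34, adjusted p = 0.0284) and Micu2 (0.42, adjusted p = 0.0474). In that setting 10.5% of all genes were called, so the number of these calls is not a result about the 3 lists. With all libraries the smallest adjusted p of each list in WT-BAPN against WT were those of Mul1, a mitochondrial ubiquitin ligase (-0.46 ± 0.16, edgeR adjusted p = 0.0815), Mcur1, a regulator of the calcium uniporter (-0.27 ± 0.13, adjusted p = 0.206), and Nrf1 (-0.33 ± 0.12, adjusted p = 0.0835). In KI against WT, Mcu, the pore of the calcium uniporter, had -0.65 ± 0.19 (adjusted p = 0.115), Afg3l2, a protease subunit of the inner membrane, 0.25 ± 0.16 (adjusted p = 0.446), and Ppargc1a, a coactivator of mitochondrial biogenesis and one of the brown adipocyte markers, 1.06 ± 0.55 (adjusted p = 0.334). Ppargc1a was uneven, at 2.59 to 35.9 CPM in KI (mean 10.7, SD 14.1) and 2.31 to 12.4 CPM in WT. In KI-BAPN against WT-BAPN, Pld6, a phospholipase of the mitochondrial surface, had 1.70 ± 0.51 (adjusted p = 0.243), Samm50, the core of the sorting and assembly machinery, 0.59 ± 0.21 (adjusted p = 0.268), and Micu2, a gatekeeper of the uniporter, 0.35 ± 0.14 (adjusted p = 0.282). Pld6 was near the floor, at 0.141 to 2.27 CPM in KI-BAPN and 0.148 to 0.474 CPM in WT-BAPN. In KI-BAPN against KI, Gdap1, a fission factor of neurons, had -4.44 ± 0.86 (adjusted p = 0.102). KI replicates 1, 2 and 5 held the neuron markers given above, and the part of these in the level of Gdap1 was not tested. Gdap1 was near the floor in KI-BAPN, at 0.106 to 0.514 CPM, and uneven in KI, at 0.278 to 21.2 CPM (mean 5.56, SD 8.85).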

How the data were processed

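The deposited table holds whole-number read counts per gene, made by the authors and not normalized, which were matched to the 24 samples by the codes in the labels, with 0 per-sample columns left unmatched. Tools named in the submitters' processing notes are HISAT2, Trim Galore, FastQC and DESeq2, with GRCm38 (mm10) as build. Which read counter was used, and with which strand setting, is not given in the sources used here. Both the 10 genes and all lists were chosen with earlier results of these data known, and give no independent support.

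The counts of all 24 libraries were fitted with edgeR 4.0.16 (R 4.3.3) as 4 group means (TMM, filterByExpr by group, robust quasi-likelihood F test) and adjusted p over 14216 genes. A gene was called at an adjusted p under 0.05. SE and 95% intervals come from the fitted model with the moderated dispersion. Relations used log2 CPM (prior count of 2) with group means removed and two-sided permutation within groups, enumerated in full (exact) where there were at most 100000 permutations and with 100000 resamples otherwise, where 1e-05 is the smallest p they can give. Named genes are the 10, Atad3a, up to 4 called genes of each list and comparison or the 1 with the smallest adjusted p, and the gene most like each of the 10. Alternatives were DESeq2 1.42.0, limma 3.58.1 voom, other size factors, filters, covariates and libraries left out. Leaving out the 3 adipocyte-rich libraries, regressing out the smooth muscle sum, the relations with marker lists and the GENCODE M21 lengths were chosen after seeing the data. Steps were tested on simulated data. Each library is taken as 1 animal; the labels do not say which animals shared a litter or day, and p-values measure the spread between these samples. No 2 libraries of a group agreed within sampling noise (chi-square per degree of freedom of at least 31.0 over 61 pairs). Promoters are RefSeq sequences on GRCm38.p6, found for all 10 genes. Tests used scipy 1.17.1 and figures matplotlib 3.10.9.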

Additional observations from a re-analysis of the deposited data

Results flagged for a closer look

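Each of the 10 genes and Atad3a was looked at in each of the 4 groups for a library whose distance to the nearest other one took up an unusual share of the group's range, by Dixon's limit. This gave 7 of 44 groups of values, where chance flags about 1 in 20. In KI, replicate 5 stood alone at 146 CPM of Immt (87.1 to 96.0 in the other KI libraries), 128 CPM of Chchd3 (46.2 to 64.1) and 35.5 CPM of Chchd6 (10.2 to 14.6). In WT-BAPN, replicate 7 stood alone at 124 CPM of Immt (79.6 to 96.0 in the others) and 91.9 CPM of Chchd3 (49.7 to 55.7). In WT, replicate 5 stood alone at 90.5 CPM of Chchd3 (55.3 to 68.2 in the others), and replicate 4 at 61.4 CPM of Atad3a (30.2 to 41.0). Of the 7, 6 concern the MICOS genes, which vary together and so are not independent of each other. KI replicate 5 was the library with the most brown adipocyte marker RNA (1103 CPM) and WT-BAPN replicate 7 the one with the least (24.2 CPM); the part of these markers in the values was not tested.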

How the results depend on the processing

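Of 1790 values of the 10 genes under 36 other settings each (35 for the interaction), 1734 kept their sign and side of the threshold; Letm1 in WT-BAPN against WT was called in 31 of 36 (log2 -0.55 to -0.44). The limits are the small groups, libraries with RNA of other tissue, 120 counts in the lowest value, and a single count table. The cause of the changes below was not tested, except that leaving out libraries leaves fewer samples. The count of called genes among the 10 was 2 with limma voom and 0 at a threshold of 0.01 for WT-BAPN against WT, and 0 to 1 with 1 library left out. Counts over all genes moved as follows. For WT-BAPN against WT they were 1524 without the 4 libraries WT replicate 5 and KI replicates 1, 2 and 5, 4227 with limma voom, 1510 with DESeq2, 6 and 1831 at thresholds of 0.01 and 0.1, and 327 (without WT replicate 1) to 1609 (without WT-BAPN replicate 7) with 1 library left out. For KI-BAPN against KI they were 0 with no filter, with the replicate block, without the 3 adipocyte-rich libraries, with only the groups compared, with limma voom and at 0.01, 109 with fat and muscle scores as covariates, 3 without the 4 libraries, 302 with DESeq2, and 0 to 143 (without KI replicate 4) with 1 library left out. For KI against WT they were 7 with no filter, 294 with covariates, 1 without the 4 libraries, 8 without the 3 libraries, 8 with only the groups compared, 270 with limma voom, 512 with DESeq2, 2 and 196 at 0.01 and 0.1, and 1 (without KI replicate 2) to 293 (without WT replicate 5). For KI-BAPN against WT-BAPN limma voom gave 3 and DESeq2 18, and for the interaction 4 and 24. Signs turned in values that no setting called. Without the 4 libraries, KI-BAPN against KI was 0.027 for Opa1, 0.074 for Mfn1 and 0.092 for Dnm1l, KI against WT was -0.012 for Mfn1, -0.27 for Dnm1l, -0.22 for Chchd3 and 0.0083 for Tfam, and the interaction was -0.10 for Mfn2. Without the 3 libraries, Immt was -0.012 for KI-BAPN against KI and -0.030 against WT-BAPN, KI against WT was -0.16 for Chchd3 and -0.21 for Chchd6, and the interaction was 0.15 for Polg. With covariates, Chchd3 was 0.13 for WT-BAPN against WT, Letm1 0.024 for KI-BAPN against KI, and KI against WT was -0.043 for Chchd3 and -0.11 for Chchd6. Dnm1l was -0.10 with limma voom for KI against WT. Immt, at -0.0002 there, was 0.015 without mitochondrially encoded genes, 0.014 with no filter, 0.0038 with at least 1 CPM in 5 libraries and 0.018 with only the groups compared. With 1 library left out, KI-BAPN against KI ran from -0.061 to 0.20 for Immt and from -0.053 to 0.75 for Chchd6. KI against WT ran from -0.042 to 0.22 for Dnm1l, -0.16 to 0.052 for Immt, -0.17 to 0.26 for Chchd3, -0.22 to 0.39 for Chchd6 and -0.088 to 0.016 for Tfam. KI-BAPN against WT-BAPN ran from -0.060 to 0.0033 for Opa1, and the interaction from -0.084 to 0.23 for Mfn2 and from -0.21 to 0.045 for Polg. The number of the 10 genes related to Atad3a in the knock-in was 0 without the 4 libraries, without the 3, without the 2 farthest and with the smooth muscle sum regressed out, and 1 to 2 with 1 library left out.

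Libraries that share a replicate number deviated together (r over 0.1) in 5 of 6 pairs for WT-BAPN and WT, with r from -0.11 to 0.57. They did so in 1 of 5 for KI-BAPN and KI, 3 of 5 for KI and WT and 2 of 6 for KI-BAPN and WT-BAPN. The labels do not say what the numbers mark, so they were not taken as pairs in the main fit. Whether WT-BAPN and WT libraries of 1 number share a litter or day was not tested. With the replicate block, 1 of the 10 genes was called for WT-BAPN against WT (Letm1, -0.55, edgeR adjusted p = 0.0254) and 0 in the other comparisons, and counts over all genes were 1024, 0, 29, 1 and 0 for WT-BAPN against WT, KI-BAPN against KI, KI against WT, KI-BAPN against WT-BAPN and the interaction.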
